A study of Mus musculus with 35 samples.

Results

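The genes described here encode the machinery that releases synaptic vesicles. They were a set of 42 gene symbols chosen with earlier results of these data known. All 42 were matched to an Ensembl gene among the 52636 genes counted. Counts came from 35 RNA-seq libraries of amygdala cells of 19 female mice, cut out of brain sections with a laser capture microscope at positions that the study's methods give as the basolateral nucleus. The inbred strain C57BL/6J and the hybrid B6D2F1N were kept in standard housing (the control environment of the labels) or, from postnatal day 77, in enriched housing with 1 h of access to a playground per day. All mice, the controls included, were trained from postnatal day 70 for 37 to 90 days and then took a judgement bias test of 5 days before the tissue was taken, so that every group is a trained group and age differed with the time each mouse needed to learn. The anterior portion was represented by 4 standard and 2 enriched C57BL/6J mice and by 5 standard and 5 enriched B6D2F1N mice. The posterior portion was represented by 4 and 4 C57BL/6J mice and by 5 and 6 B6D2F1N mice. Both portions were available from 6 C57BL/6J and 10 B6D2F1N mice. Some of the mice were classed as optimist or pessimist in the judgement bias test (bias class). All optimists were in standard housing, and all pessimists except B6D2F1N standard mouse 1 were in enriched housing.

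At a chemical synapse, vesicles filled with transmitter dock at the active zone, a protein scaffold under the presynaptic membrane, and are primed for fusion. Fusion is driven by the SNARE proteins, which zip together from the vesicle and the plasma membrane, and is held in check and triggered by complexins and the calcium sensor synaptotagmin. Synapsins tether a reserve of vesicles, and the ATPase NSF takes spent SNARE complexes apart. In the amygdala, as elsewhere in the forebrain, glutamatergic and GABAergic neurons use different isoforms of several of these proteins.

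The total count on genes ran from 16938534 to 27352623 over the libraries, with a median of 21409708, and 18580 to 25531 genes were detected. Of the 42 genes, 40 had counts in all 35 libraries, and Syt2 and Syt6 were at 0 in 1 library each. B6D2F1N standard mouse 1 had 0 counts of Xist, the RNA that silences an X chromosome in female cells, in both of its libraries and 0 counts of the Y-linked genes, whereas every other library held at least 1191 counts of Xist. The labels call this mouse female, and where results change without it, this is stated. Anterior and posterior are used here as the labels assign them. By the bregma distances in the study's methods (bregma is a landmark of the skull), however, the portion called posterior lies in front of the other. It was not tested which usage the labels reflect, and if the names were exchanged, every sign in the comparison of portions would reverse. The marker genes of neurons of any type were present in every library, with summed levels of 2591 to 3866 CPM in anterior and 1812 to 3125 CPM in posterior libraries. CPM is a count scaled to a common library size with TMM factors.

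The levels of the 42 genes spanned a wide range. Per kilobase of annotated exon, Syt5, a synaptotagmin found on dense-core vesicles, was highest at 429 ± 135 CPM per kb (SD, n = 35 libraries). It was followed by Syt1, the fast calcium sensor, at 416 ± 189 CPM per kb and by Syt4, a synaptotagmin that binds calcium poorly, at 399 ± 151 CPM per kb. Snap25, the plasma membrane SNARE, stood at 351 ± 127 CPM per kb. These first 4 genes lay within each other's spread, and their order was not the same in both portions, since Syt1 led in the anterior (575 CPM per kb) and Syt5 in the posterior libraries (400.2 CPM per kb). Rab3a, the small GTPase of the vesicle surface, came next at 176 ± 56.3 CPM per kb. At the other end, the mean level of Doc2a, a calcium sensor of spontaneous release, was 1.06 ± 0.712 CPM per kb, and that of Syn3, the least abundant synapsin, 0.961 ± 0.397 CPM per kb.

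Within the complexins, Cplx1 had a mean level of 105 ± 52.5 CPM per kb, Cplx2 of 50.3 ± 29 CPM per kb and Cplx3 of 8.36 ± 5.5 CPM per kb over the 35 libraries. Within the Munc13 family of priming factors, the levels of Unc13c, with 4.79 ± 3.18 CPM per kb, and of Unc13a, with 4.48 ± 1.21 CPM per kb, did not differ beyond their spread, while Unc13b stood at 1.35 ± 0.419 CPM per kb. A level per kilobase divides by all annotated exons of a gene and so understates genes with many rarely used exons.

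Promoter windows of 31 of the 42 genes were found in a RefSeq table for GRCm38.p6. The 250 bases before the annotated start, 5′ to 3′ on the gene's strand, are shown for Cplx2 and Unc13c, which the comparison with paralogs below turns on, for Syt10, which was higher in the posterior portion in both strains, and for Stx1a, which was lower there in both strains. Capitals mark matches on either strand to the GC box GGGCGG, the TATA box TATAAA and TCAGCACC, the left part of the RE1 element bound by the neuronal repressor REST.
Cplx2: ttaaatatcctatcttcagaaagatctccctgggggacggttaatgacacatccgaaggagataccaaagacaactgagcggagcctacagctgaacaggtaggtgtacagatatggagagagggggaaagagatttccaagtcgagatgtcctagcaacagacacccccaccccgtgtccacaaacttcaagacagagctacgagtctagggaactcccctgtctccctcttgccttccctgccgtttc
Unc13c: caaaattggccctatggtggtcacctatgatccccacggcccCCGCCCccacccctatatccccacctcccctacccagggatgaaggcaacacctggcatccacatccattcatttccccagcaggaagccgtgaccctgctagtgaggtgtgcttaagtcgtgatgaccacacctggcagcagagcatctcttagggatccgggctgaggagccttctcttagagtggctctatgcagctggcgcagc
Syt10: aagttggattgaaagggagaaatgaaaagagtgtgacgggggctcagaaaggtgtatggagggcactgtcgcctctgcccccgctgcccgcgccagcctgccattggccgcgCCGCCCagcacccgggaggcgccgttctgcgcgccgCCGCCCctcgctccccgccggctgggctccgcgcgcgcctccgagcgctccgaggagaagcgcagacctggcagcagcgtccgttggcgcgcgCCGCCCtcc
Stx1a: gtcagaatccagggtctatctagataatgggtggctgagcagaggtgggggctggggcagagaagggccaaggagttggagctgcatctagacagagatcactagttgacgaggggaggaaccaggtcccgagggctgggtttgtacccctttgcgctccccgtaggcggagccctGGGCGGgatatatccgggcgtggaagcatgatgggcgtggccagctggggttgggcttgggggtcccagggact
The windows are chr13:54302306-54302555 on the plus strand, chr9:73969038-73969287 and chr15:89841861-89842110 on the minus strand, and chr5:135023232-135023481 on the plus strand. All 4 lie before the gene as GENCODE M21 annotates it. The Cplx2 window is far upstream of the GENCODE gene (chromosome 13, 54371349 to 54383917), because RefSeq lists an earlier start. The GC box was found 0 times in the Cplx2 window, 1 time in that of Unc13c, 3 times in that of Syt10 and 1 time in that of Stx1a. Of the 31 windows, 23 held a GC box, 2 a TATA box and 1 the RE1 part, against 32.7%, 12.4% and 1.32% of all 32851 windows of this length in the table. A match only says that these letters are present.

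The portions of the amygdala were compared within each strain, with both libraries of a mouse as a pair. Of the 42 genes, 15 passed an adjusted p of 0.05 in C57BL/6J mice (6 pairs), which is 35.7% of them, against 3.64% of the 25751 genes tested. In B6D2F1N mice (10 pairs), 17 passed, which is 40.5%, against 4% of the 27761 genes tested. In C57BL/6J mice, 13 of the 15 were lower and 2 higher in the posterior portion, where 2.1% of all genes were called lower and 1.54% higher. In B6D2F1N mice, 14 were lower and 3 higher, against 2.37% and 1.62% of all genes. The median log2 fold change (posterior minus anterior) of the 42 genes was -0.51 in C57BL/6J and -0.43 in B6D2F1N mice, beside 0.01 and 0.15 for all genes tested. Without C57BL/6J standard mouse 1, 8 of the 42 genes and 2.41% of all genes passed in that strain. DESeq2 called 17 genes in C57BL/6J (5.96% of all genes) and 19 in B6D2F1N mice (7.18%). The 42 genes were chosen with earlier results of these data known, and nearly all had counts in every library. All genes tested include many with few counts. The shares called are therefore a description and no test of the set. In such bulk samples, fewer cells of a type and less RNA per cell cannot be told apart.

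A total of 11 genes were called in both strains, all 11 in the same direction, or 73.3% of the C57BL/6J calls and 64.7% of the B6D2F1N calls. Lower in the posterior portion in both were Stx1a, Syt1, Syt12, Bsn, Pclo, Syn2, Sv2a, Sv2b and Syp, and higher were Doc2b and Syt10. Called in C57BL/6J mice alone were Cplx1, Cplx3, Syt7 and Rab3c, and in B6D2F1N mice alone Unc13c, Snap25, Stxbp5, Rims1, Syn1 and Nsf. That a gene passed in a single strain does not show that the strains differ. The strain by portion term, which tests this difference, called 0 of the 42 genes and 0% of the 29437 genes tested (edgeR, 871 genes at an unadjusted p of at most 0.05, none of them among the 42, and 0 of the 42 with DESeq2). The smallest p of the 42 belonged to Syt2, with a difference between the portion effects (B6D2F1N minus C57BL/6J) of 1.60, and to Doc2b, with -1.05 (adjusted p = 1 for both). For the complexins this difference was 0.36 (Cplx1), -0.36 (Cplx2) and 0.62 (Cplx3), and for the Munc13 genes -0.15 (Unc13a), -0.30 (Unc13b) and 0.46 (Unc13c).

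**Figure D1:**
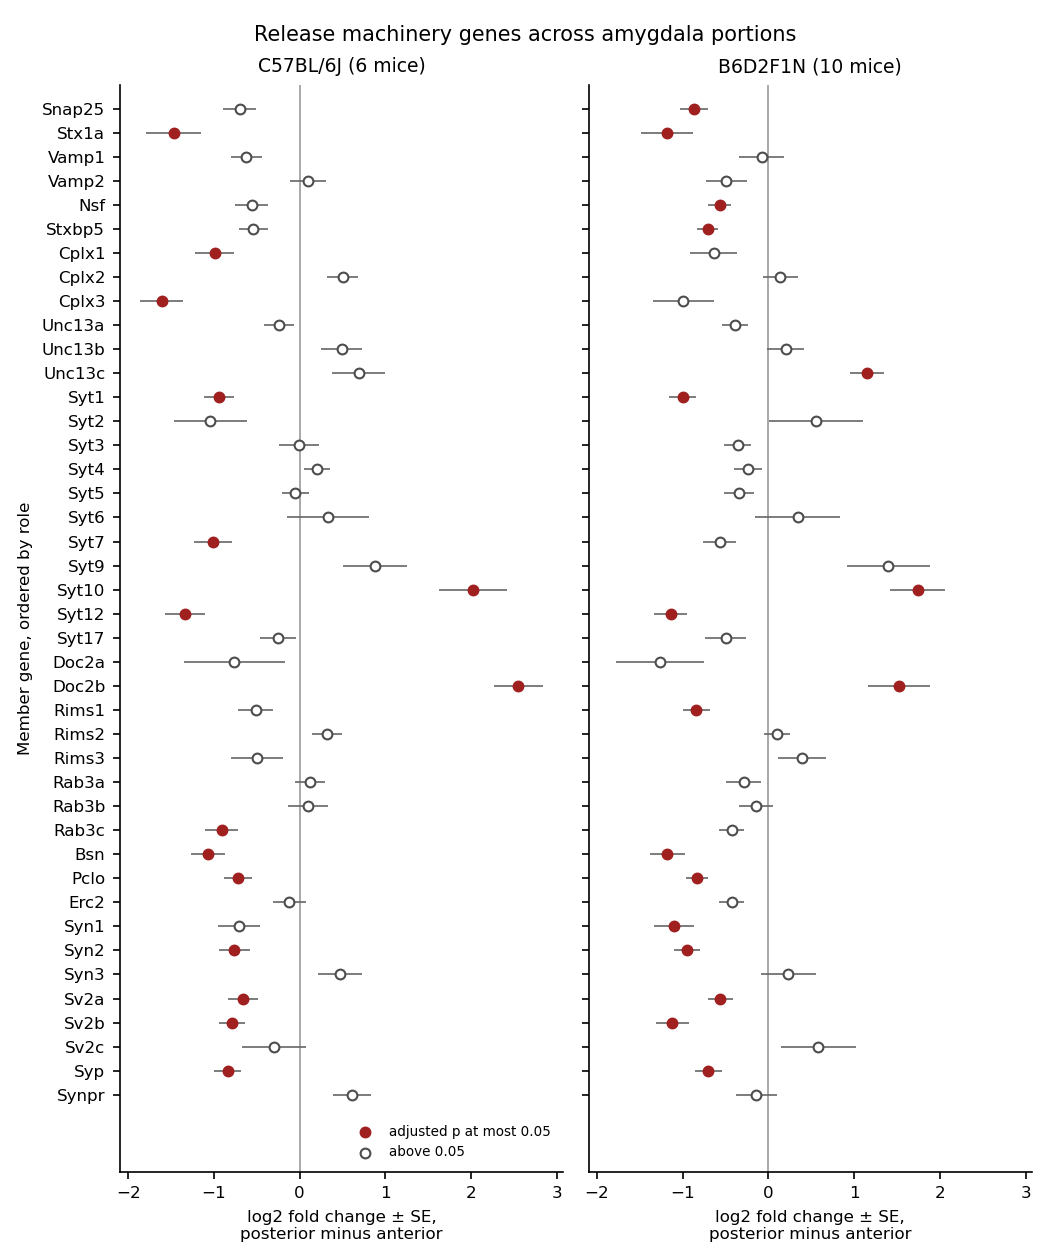
Log2 fold change (posterior minus anterior, x axis) with its standard error for each of the 42 genes (y axis, ordered by role), in C57BL/6J (6 mice) and B6D2F1N mice (10 mice). Filled points passed an adjusted p of 0.05, and most filled points lie left of 0, with Syt10 and Doc2b to the right in both panels.

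The SNARE genes with a call were lower in the posterior portion. Stx1a, the plasma membrane syntaxin, ranged from 78.9 to 184 CPM (median 152) in the anterior and from 27.6 to 174 CPM (median 50) in the posterior libraries of C57BL/6J mice. It was lower in 5 of 6 mice, with a log2 fold change of -1.47 ± 0.322 (SE) and an adjusted p of 0.0117. In B6D2F1N mice, Stx1a ranged from 60.1 to 226 CPM (median 109.5) and from 18.4 to 85.2 CPM (median 58.9). The ranges overlapped in both strains, and it was lower in 9 of 10 B6D2F1N mice (log2 fold change -1.18 ± 0.3, adjusted p = 0.03).

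Snap25 fell from a median of 3063 CPM (2410 to 4071) to 1492 CPM (1105 to 3562) in B6D2F1N mice, with a log2 fold change of -0.87 ± 0.164 and an adjusted p of 0.00415. In C57BL/6J mice its medians were 3123 and 1685 CPM, and its log2 fold change of -0.70 ± 0.195 missed the threshold (adjusted p = 0.0567). Nsf, which recycles SNARE complexes, fell from 610 to 419 CPM on average in B6D2F1N mice (log2 fold change -0.57 ± 0.133, adjusted p = 0.0162) and was lower in 9 of 10 mice. Stxbp5, encoding tomosyn, a brake on SNARE assembly, fell from 81 to 49 CPM in the same mice (log2 fold change -0.71 ± 0.12, adjusted p = 0.0018), in 10 of 10. The vesicle SNAREs did not pass. The log2 fold change of Vamp2, the main forebrain synaptobrevin, was 0.10 ± 0.211 in C57BL/6J and -0.49 ± 0.235 in B6D2F1N mice. For Vamp1, the isoform of fast-firing neurons, it was -0.62 ± 0.185 and -0.08 ± 0.262, with adjusted p of 0.0767 and 0.933.

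The complexins, which bind the SNARE bundle, did not move together. Cplx1 ranged from 246 to 342 CPM (median 288) in the anterior and from 80.3 to 449 CPM (median 130) in the posterior libraries of C57BL/6J mice. It was lower in 5 of 6 mice, with a log2 fold change of -0.99 ± 0.229 and an adjusted p of 0.0176, and the exception was enriched mouse 1 with 288 and 449 CPM. Cplx3 ranged from 29.1 to 47.3 CPM (median 36.2) in the anterior and from 7.48 to 36.8 CPM (median 9.73) in the posterior libraries. It was lower in 6 of 6 mice (log2 fold change -1.61 ± 0.252, adjusted p = 0.0008).

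Cplx2 went the other way in every C57BL/6J pair, but without passing the test. It ranged from 122 to 278 CPM (median 141) in the anterior and from 143 to 652 CPM (median 174) in the posterior libraries and was higher in the posterior portion in 6 of 6 mice. The groups overlapped, and the log2 fold change was 0.50 ± 0.177 (adjusted p = 0.156). When libraries were scaled to the summed neuron markers in place of all genes, this became 0.77 with an adjusted p of 0.0114.

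In B6D2F1N mice, none of the complexins passed. Cplx1 had medians of 251 and 159 CPM (log2 fold change -0.64 ± 0.27, adjusted p = 0.252), Cplx3 29.9 and 12.7 CPM (-0.99 ± 0.351, adjusted p = 0.146) and Cplx2 184 and 265 CPM (0.14 ± 0.206, adjusted p = 0.797). Cplx2 was higher in the posterior portion in 7 of the 10 mice, and all 3 complexins overlapped between the portions.

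**Figure D2:**
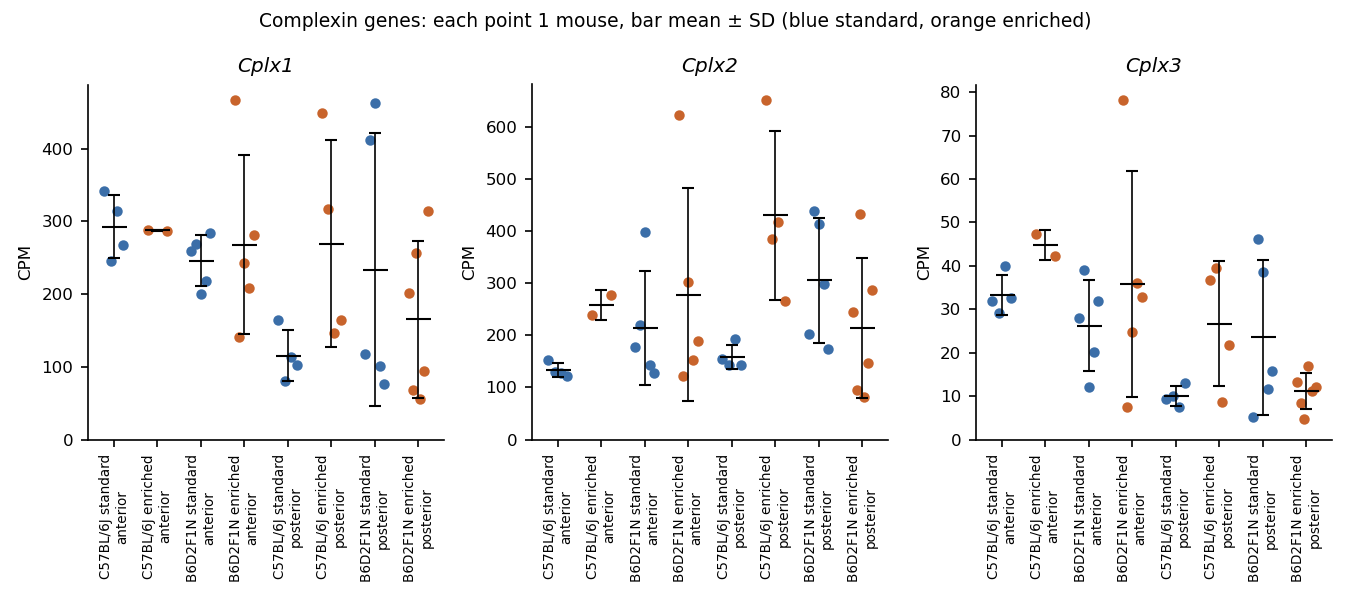
CPM (y axis) of Cplx1, Cplx2 and Cplx3 in the 8 groups of strain, housing and portion (x axis), with each point 1 mouse, blue for standard and orange for enriched housing, and bars for the mean ± SD. Cplx2 is at 122 to 152 CPM in the 4 standard anterior C57BL/6J mice and at 265 to 652 CPM in the 4 enriched posterior ones.

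Set beside its paralogs per kilobase of exon, Cplx2 was below Cplx1 in 16 of 16 anterior libraries, with mean levels of 44.4 ± 27 and 123 ± 32.7 CPM per kb. In the posterior libraries the means were 55.2 ± 30.4 and 88.9 ± 61.2 CPM per kb, and Cplx2 was above Cplx1 in 3 of 19. Cplx2 was above Cplx3 in all 35 libraries. Within a library, the log2 ratio of Cplx2 to Cplx1 counts rose from -0.81 ± 0.52 in the anterior to 0.67 ± 0.53 (SD, n = 6) in the posterior portion of C57BL/6J mice. This difference of 1.48 was positive in 6 of 6 mice (exact permutation test over mice, two-sided, p = 0.0312, the smallest that 6 mice allow, 0.0625 adjusted over 8 such tests). In B6D2F1N mice the ratio moved from -0.21 ± 0.62 to 0.54 ± 0.56 and was higher in 8 of 10 mice (exact permutation p = 0.0527, adjusted 0.0703, n = 10). Against Cplx3, the ratio of Cplx2 differed by 2.12 in C57BL/6J (higher in 6 of 6 mice, exact permutation p = 0.0312) and by 1.09 in B6D2F1N mice (higher in 8 of 10, exact permutation p = 0.043), with adjusted p of 0.0625 and 0.0688. None of these 4 ratios passed after adjustment. When each B6D2F1N mouse was left out in turn, the difference against Cplx3 ran from 0.89 to 1.39. The unadjusted exact permutation p rose above 0.05 in 8 of 10 fits, among them that without standard mouse 1, the mouse with 0 counts of Xist.

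Among the Munc13 genes, Unc13c was higher in the posterior portion of B6D2F1N mice. It ranged from 14.1 to 100.3 CPM (median 18.5) in the anterior and from 20.2 to 101 CPM (median 63.8) in the posterior libraries. The ranges overlapped, since standard mouse 3 had 100.3 and 101 CPM, but Unc13c was higher in 10 of 10 mice (log2 fold change 1.15 ± 0.197, adjusted p = 0.00203). In C57BL/6J mice it had medians of 15.4 and 32.6 CPM and was higher in 5 of 6, with a log2 fold change of 0.69 ± 0.309 that did not pass (adjusted p = 0.332). The exception was enriched mouse 1, whose anterior library had 86.7 CPM and whose posterior library had 32 CPM.

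Unc13a, the main forebrain priming factor, did not pass in either strain. Its log2 fold change was -0.24 ± 0.172 in C57BL/6J mice, which turns to 0.03 when libraries are scaled to the neuron markers, and -0.39 ± 0.153 in B6D2F1N mice (adjusted p = 0.64 and 0.205). Exons of Unc13a overlap those of Colgalt1 on the other strand. Unc13b, the Munc13-2 gene, had 0.49 ± 0.236 and 0.20 ± 0.211 (adjusted p = 0.379 and 0.711). Per kilobase, Unc13c was above Unc13a in 4 of 16 anterior and 10 of 19 posterior libraries. The log2 ratio of Unc13c to Unc13a counts in B6D2F1N mice was -1.35 ± 1.15 in the anterior and 0.19 ± 0.85 in the posterior portion (SD, n = 10) and was higher in 10 of 10 mice. The exact permutation p of 0.00195 is the smallest that 10 mice allow, and it passed after adjustment (0.0156). In C57BL/6J mice, the same ratio differed by 0.89 (higher in 5 of 6 mice, exact permutation p = 0.188, adjusted 0.214). Against Unc13b, the ratio of Unc13c differed by 0.94 in B6D2F1N mice (higher in 7 of 10, exact permutation p = 0.0312, adjusted 0.0625). In C57BL/6J mice it differed by 0.16 (higher in 5 of 6, exact permutation p = 0.75, adjusted 0.75). When each B6D2F1N mouse was left out in turn, the value of 0.94 ran from 0.74 to 1.15. Its result weakened in 5 of 10 fits, among them that without standard mouse 1, the mouse without Xist counts.

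**Figure D3:**
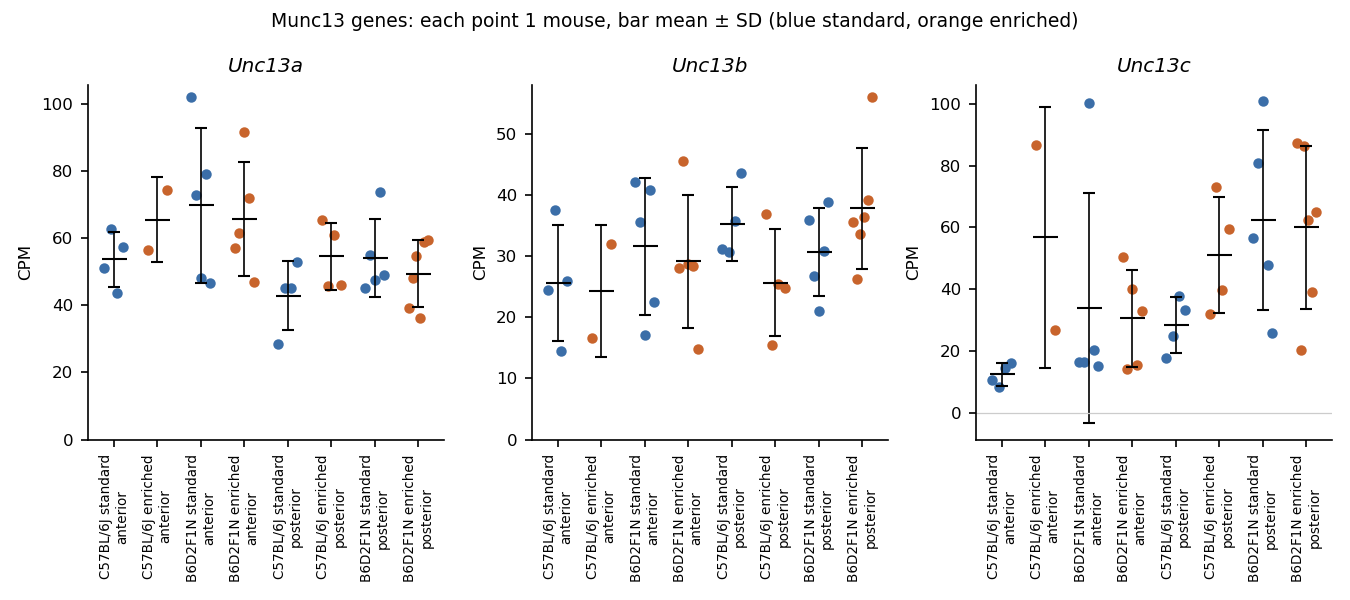
CPM (y axis) of Unc13a, Unc13b and Unc13c in the 8 groups of strain, housing and portion (x axis), with each point 1 mouse, blue for standard and orange for enriched housing, and bars for the mean ± SD. Standard mouse 3 stands alone at 100.3 CPM of Unc13c among the standard anterior B6D2F1N mice, whose SD bar passes below 0.

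The calcium sensors moved in both directions. Syt1 ranged from 3286 to 7372 CPM (median 4804) in the anterior and from 1816 to 3164 CPM (median 2491) in the posterior libraries of C57BL/6J mice, with no overlap. Its log2 fold change was -0.94 ± 0.176 (adjusted p = 0.00351). In B6D2F1N mice, where the ranges of 2496 to 7093 and 1322 to 3237 CPM overlapped, it was -1 ± 0.158 (adjusted p = 0.00109), and Syt1 was lower in every pair of both strains.

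Syt12, a synaptotagmin that does not bind calcium, had mean levels of 51.3 and 20 CPM in C57BL/6J and of 43 and 19.4 CPM in B6D2F1N mice. It was lower in the posterior portion in 6 of 6 and 10 of 10 mice (log2 fold change -1.34 ± 0.235 and -1.14 ± 0.189). Syt7, the slow sensor of asynchronous release, fell from a mean of 129.7 to 73.3 CPM in C57BL/6J mice (log2 fold change -1.01 ± 0.217, adjusted p = 0.0105), and had -0.57 ± 0.192 in B6D2F1N mice (adjusted p = 0.116).

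Syt10, a sensor of dense-core vesicle release, ranged from 2.38 to 11.2 CPM (median 5.64) in the anterior and from 10.4 to 48.9 CPM (median 23) in the posterior libraries of C57BL/6J mice. It was higher in 6 of 6 mice, although the ranges overlapped (log2 fold change 2.02 ± 0.4, adjusted p = 0.00552). In B6D2F1N mice it ranged from 2.21 to 43.4 CPM (median 10.7) and from 23.2 to 64.9 CPM (median 34) and was higher in 9 of 10 (1.74 ± 0.32, adjusted p = 0.00335).

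Doc2b, a soluble sensor with high calcium affinity, ranged from 2.69 to 9.08 CPM in the anterior and from 26.6 to 36.1 CPM in the posterior libraries of C57BL/6J mice. These ranges did not overlap, and the log2 fold change of 2.55 ± 0.289 was the largest rise of the 42 genes in that strain (adjusted p = 3.44e-05). In B6D2F1N mice, Doc2b ranged from 2.38 to 18.7 and from 7.36 to 36.2 CPM and was higher in 8 of 10 (1.52 ± 0.361, adjusted p = 0.0201). Exons of Syt7, Syt12 and Doc2b overlap those of a gene on the other strand, whose reads could not be separated here. Its paralog Doc2a had log2 fold changes of -0.76 ± 0.587 and -1.26 ± 0.513 at levels of at most 8.64 CPM in the paired libraries, and did not pass.

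Of the other synaptotagmins, Syt2, Syt3, Syt4, Syt5, Syt6, Syt9 and Syt17 passed in neither strain. Their log2 fold changes lay between -1.04 (Syt2) and 0.88 (Syt9) in C57BL/6J mice and between -0.50 (Syt17) and 1.40 (Syt9) in B6D2F1N mice.

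Of the active zone genes, Bsn and Pclo were lower in the posterior portion in both strains and Rims1 in B6D2F1N mice, while Rims2, Rims3 and Erc2 passed in neither strain. Bsn, encoding bassoon, ranged from 151 to 243 CPM (median 177) in the anterior and from 61.4 to 178 CPM (median 77.6) in the posterior libraries of C57BL/6J mice (log2 fold change -1.07 ± 0.199, adjusted p = 0.00351). In B6D2F1N mice the ranges of 122 to 280.3 and 34.2 to 119 CPM did not overlap, and the log2 fold change was -1.18 ± 0.202 (adjusted p = 0.002). Pclo, encoding its partner piccolo, fell from a mean of 233 to 143 CPM and from 266 to 148 CPM, with log2 fold changes of -0.72 ± 0.166 and -0.83 ± 0.129, and was lower in all 16 pairs.

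Rims1, which links Rab3 to the Munc13 proteins, passed in B6D2F1N mice, where it fell from a mean of 99.2 to 59.2 CPM in 10 of 10 mice (log2 fold change -0.84 ± 0.156, adjusted p = 0.00357). In C57BL/6J mice its log2 fold change was -0.51 ± 0.204 (adjusted p = 0.234). The log2 fold changes of Rims2, Rims3 and the scaffold gene Erc2 were 0.32 and 0.10, -0.50 and 0.39, and -0.12 and -0.43. Of the Rab3 GTPases, Rab3c passed in C57BL/6J mice, where it fell from 405 to 221 CPM on average in 6 of 6 mice (-0.91 ± 0.192, adjusted p = 0.0091). In B6D2F1N mice its log2 fold change was -0.43 ± 0.141 (adjusted p = 0.103). Those of Rab3a and Rab3b lay between -0.29 and 0.12 and did not pass.

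Of the genes for proteins of the vesicle itself, several were lower in the posterior portion. Syn2, a synapsin, had medians of 416 and 228 CPM in C57BL/6J and of 392 and 192 CPM in B6D2F1N mice, with log2 fold changes of -0.76 ± 0.176 and -0.95 ± 0.153 (adjusted p = 0.018 and 0.00135). Syn1 fell from a mean of 123 to 59 CPM in 10 of 10 B6D2F1N mice (-1.10 ± 0.232, adjusted p = 0.00954) and had -0.71 ± 0.247 in C57BL/6J mice (adjusted p = 0.148). Syn3 did not pass in either (0.47 and 0.23).

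Sv2b, a vesicle glycoprotein, ranged from 1061 to 2536 CPM and from 712 to 1462 CPM in C57BL/6J mice and from 367 to 2503 CPM and from 341 to 1075 CPM in B6D2F1N mice. Its log2 fold changes were -0.79 ± 0.148 and -1.12 ± 0.191 (adjusted p = 0.0037 and 0.00189). Its paralog Sv2a, which binds the antiepileptic drug levetiracetam, was also called (-0.66 ± 0.177 and -0.56 ± 0.144, adjusted p = 0.045 and 0.0305), and Sv2c did not pass (-0.30 and 0.58). Syp, encoding the vesicle marker synaptophysin, ranged from 378 to 446 CPM in the anterior and from 146 to 314 CPM in the posterior libraries of C57BL/6J mice, with no overlap. Its log2 fold changes were -0.84 ± 0.156 and -0.70 ± 0.16 (adjusted p = 0.00334 and 0.0153). Its relative Synpr, encoding synaptoporin, did not pass (0.61 and -0.14). Exons of Syn1, Syn2, Syn3, Sv2b, Syp and Pclo overlap those of genes on the other strand, and those of Bsn a gene on the same strand.

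These calls depended in part on the reference to which the libraries were scaled. Of the 10 markers of neurons of any type, 4 were called in each strain (3 lower and 1 higher in the posterior portion of C57BL/6J, 4 lower in B6D2F1N mice), and the median log2 fold change of the 10 was -0.54 and -0.37. Of all genes tested, 3.64% and 4% were called. When libraries were scaled to the sum of these markers, the median over all genes moved to 0.27 in C57BL/6J and 0.50 in B6D2F1N mice. The numbers of the 42 genes that passed became 11 and 12, of which 9 and 11 were among the calls above, against 4.22% and 9.6% of all genes. Of the 11, 7 were lower and 4 higher, and of the 12, 8 were lower and 4 higher. The median log2 fold change of the 42 genes under this scaling was -0.25 in C57BL/6J and -0.06 in B6D2F1N mice. A change of scaling shifts all genes by nearly the same amount. It therefore leaves the distance between the 42 genes and all genes nearly unchanged and is no test of it. Called in C57BL/6J mice under each of the alternatives other than leaving out a mouse were Doc2b, Syt10, Syp, Bsn, Syt1, Cplx3 and Syt12. In B6D2F1N mice these were Syn2, Doc2b, Snap25, Bsn, Syt1, Syn1, Syt12, Sv2b, Pclo and Syt10.

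Some calls also depended on single mice. When each mouse was left out in turn, 8 of the 15 calls in C57BL/6J and 12 of the 17 in B6D2F1N mice were made in every fit. The call of Sv2a in C57BL/6J mice was lost in 5 of 6 fits (adjusted p up to 0.196), those of Stx1a, Cplx1 and Syn2 in 4, that of Pclo in 3, and those of Syt7 and Rab3c in 1. In B6D2F1N mice the call of Sv2a was lost in 6 of 10 fits, that of Stx1a in 5, and those of Doc2b, Syp and Nsf in 1. Without C57BL/6J enriched mouse 1, Unc13c was called in that strain (edgeR adjusted p = 0.0141), and without B6D2F1N standard mouse 3, Cplx3 was called in B6D2F1N mice (adjusted p = 0.0236). Stx1a, Cplx1, Syt7, Bsn, Syn2 and Sv2a were called lower in C57BL/6J mice with 5 of 6 mice lower. The exception was enriched mouse 1 each time, with Stx1a, for instance, at 78.9 CPM in its anterior and 174 CPM in its posterior library. Syt1, Syt12, Syp, Sv2b, Pclo, Rab3c and Cplx3 were lower in this mouse too.

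Other cell types differed between the portions as well, and their part in these results was not tested. Over all genes tested, 3.64% were called between the portions in C57BL/6J and 4% in B6D2F1N mice. The 8 markers of choroid plexus, the tissue that makes cerebrospinal fluid, summed to 7.1 to 943 CPM (median 12.2) in the anterior and 119.9 to 14423 CPM (median 1445) in the posterior libraries. All 8 were called higher in B6D2F1N and 4 of 8 in C57BL/6J mice, although Slc4a5 and Aqp1 were at 0 in 16 and 15 of 35 libraries. The 5 markers of excitatory neurons of the basolateral amygdala summed to 277 to 1031 CPM (median 766) in the anterior and 108 to 388 CPM (median 261) in the posterior libraries, with 2 and 3 of the 5 called lower. None of these 5 markers was at 0 in any library. The 9 general markers of excitatory neurons summed to 2182 to 4950 CPM (median 3698) and 1228 to 6174 CPM (median 2508), with 3 lower and 1 higher called in C57BL/6J and 4 lower and 1 higher in B6D2F1N mice. The 9 markers of striatal projection neurons summed to 294 to 1341 CPM (median 486) and 231 to 3318 CPM (median 1042). Of these, Drd1 was called lower in C57BL/6J and Tac1 higher in B6D2F1N mice, and Drd2, Adora2a and Rgs9 were at 0 in 1 library each. Without B6D2F1N standard mouse 1, the mouse without Xist counts, 15 of the 42 genes (and 3.2% of all genes) passed in that strain, all 15 among the 17, and the calls of Stx1a and Sv2a were lost.

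The neighbouring parts of the pathway were taken from 3 further lists. Over all genes tested, 3.64% were called in C57BL/6J mice (2.1% lower, 1.54% higher). In B6D2F1N mice, 4% were called (2.37% lower, 1.62% higher). The median log2 fold change over all genes was 0.01 and 0.15. The counts called in these lists are a description and no test of them. Of 50 other genes of the release machinery that were tested, 9 passed in C57BL/6J (7 lower and 2 higher, median log2 fold change -0.22) and 10 in B6D2F1N mice (10 lower, median -0.30). Rph3a, encoding the Rab3 effector rabphilin, fell most in both, from 233 to 71.6 CPM and from 232 to 84.8 CPM (log2 fold change -1.87 ± 0.217 and -1.75 ± 0.244). Rimbp2 (-1.08 and -1.48), Syngr1 (-1.15 and -0.86) and Napb (-0.67 and -0.75) were also lower in both strains. These encode a linker of RIM to calcium channels, a vesicle protein and an NSF attachment protein.

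Cadps (-0.61) and Rims4 (-1.13) were called lower in C57BL/6J mice alone, and Scamp1 (-0.68), Svop (-0.75), Syt11 (-0.50) and Napg (-0.45) in B6D2F1N mice alone. Otof, encoding otoferlin, rose from 8.67 to 36.6 CPM (2.22 ± 0.267, adjusted p = 6.48e-05) in C57BL/6J mice, and Ppfia2, encoding a liprin of the active zone, rose from 74.3 to 109.6 CPM (0.58 ± 0.157, adjusted p = 0.049).

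Of 23 genes of vesicle endocytosis, 6 passed in each strain and all were lower, where 2.1% (C57BL/6J) and 2.37% (B6D2F1N) of all genes were called lower. Ap2a2, Ap2m1, Dnajc6, Sh3gl2 and Snap91 were called in both, with log2 fold changes between -0.99 (Sh3gl2) and -0.64 (Ap2m1) in C57BL/6J and between -1.05 (Sh3gl2) and -0.45 (Ap2m1) in B6D2F1N mice. Cltc, the clathrin heavy chain, was called in C57BL/6J (-0.53) and Synj1, the lipid phosphatase synaptojanin, in B6D2F1N mice (-0.54). Of 10 subunits of presynaptic calcium channels, 0 passed in C57BL/6J and 2 in B6D2F1N mice, Cacna1e (-0.78) and Cacna2d1 (-0.62), both lower.

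The effect of housing was tested within each strain and portion, without a term for bias class. Because bias class went largely with housing, their parts cannot be told apart here. None of the 42 genes passed with edgeR in any of the 4 comparisons. The share of all genes called was 0% in the anterior portion of C57BL/6J mice, 0.0163% in the posterior portion (4 genes), and 0% in both portions of B6D2F1N mice. At an unadjusted p of at most 0.05, the 42 genes held 6, 15, 0 and 6 genes, and 6.2%, 10.3%, 6.3% and 6.59% of all genes had such a p. The median log2 fold change (enriched minus standard) of the 42 genes was 0.10, 0.21, 0.06 and -0.27, beside -0.01, 0.02, -0.00 and 0.03 for all genes. DESeq2 called 3 of the 42 genes in the anterior (0.437% of all genes) and 5 in the posterior portion (1.3%) of C57BL/6J mice, and 0 in B6D2F1N mice (0.0325% and 0.0499% of all genes). Without enriched mouse 3, edgeR called 4 of the 42 genes in the posterior portion of C57BL/6J mice, Cplx2, Syt2, Vamp1 and Cplx3, and 0.717% of all genes.

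Cplx2 had the smallest p of the 42 genes in the posterior portion of C57BL/6J mice. Its levels in the 4 standard mice were 154, 143, 193 and 143 CPM, and in the 4 enriched mice 652, 385, 417 and 265 CPM. All enriched mice were above all standard mice, and the log2 fold change was 1.44 ± 0.265 (adjusted p = 0.116 with edgeR and 0.00015 with DESeq2). In the anterior portion, the 4 standard mice had 152, 130, 128 and 122 CPM and the 2 enriched mice 238 and 278 CPM. These groups did not overlap either, with a log2 fold change of 0.94 ± 0.206 (adjusted p = 0.482 with edgeR and 0.00635 with DESeq2).

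In the posterior portion, the groups of its paralogs overlapped, and both were called with DESeq2. Cplx1 in the posterior portion was at 164, 80.3, 114 and 103 CPM in standard and at 449, 317, 146 and 165 CPM in enriched C57BL/6J mice, which overlap (log2 fold change 1.23 ± 0.342, adjusted p = 0.267 with edgeR and 0.04 with DESeq2). Cplx3 was at 9.33, 10.1, 7.48 and 13.1 CPM and at 36.8, 39.6, 8.67 and 21.7 CPM, again with overlap (1.42 ± 0.402, adjusted p = 0.28 with edgeR and 0.0492 with DESeq2). Without enriched mouse 3, edgeR called Cplx3 (adjusted p = 0.0161). In the anterior portion, the log2 fold changes of Cplx1 and Cplx3 were -0.05 ± 0.225 and 0.41 ± 0.246 (adjusted p = 0.999 and 0.843). The groups of Cplx1 overlapped there as well. Those of Cplx3 did not, with 29.1 to 39.9 CPM in the standard and 42.3 and 47.3 CPM in the enriched mice.

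Unc13c had the smallest p of the 42 genes in the anterior portion of C57BL/6J mice. It was at 10.6, 8.3, 14.6 and 16.2 CPM in the 4 standard mice and at 86.7 and 26.9 CPM in the 2 enriched mice. The groups did not overlap, and the 2 enriched mice differed widely from each other (log2 fold change 2.18 ± 0.411, adjusted p = 0.482 with edgeR and 0.00235 with DESeq2). In the posterior portion, 17.8, 24.8, 37.9 and 33.2 CPM in standard and 32, 73.2, 39.9 and 59.4 CPM in enriched mice overlapped (0.84 ± 0.304, adjusted p = 0.427). Unc13a had log2 fold changes of 0.27 ± 0.233 and 0.34 ± 0.236, and Unc13b of -0.09 ± 0.372 and -0.46 ± 0.27, in the anterior and posterior portion, with adjusted p from 0.577 to 0.999.

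Rab3a, with the next smallest p in the anterior portion, was at 414, 571, 545 and 393 CPM in standard and at 236 and 189 CPM in enriched C57BL/6J mice (log2 fold change -1.20 ± 0.253, adjusted p = 0.482 with edgeR and 0.00179 with DESeq2). Exons of Rab3a overlap those of Mpv17l2 on the other strand. In the posterior portion, Syt2, the calcium sensor of fast inhibitory and hindbrain synapses, was at 3.18, 3.49, 2.34 and 3.3 CPM in standard and at 4.87, 64, 4.81 and 58.3 CPM in enriched mice. Its groups did not overlap, but the difference came from enriched mice 2 and 4, while mice 1 and 3 stood just above the standard mice (3.43 ± 0.727, adjusted p = 0.171 with edgeR and 0.0178 with DESeq2). DESeq2 also called Vamp1 there, which ranged from 19.5 to 41.6 CPM in standard and from 31.8 to 149 CPM in enriched mice (1.54 ± 0.378, adjusted p = 0.195 with edgeR).

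**Figure D4:**
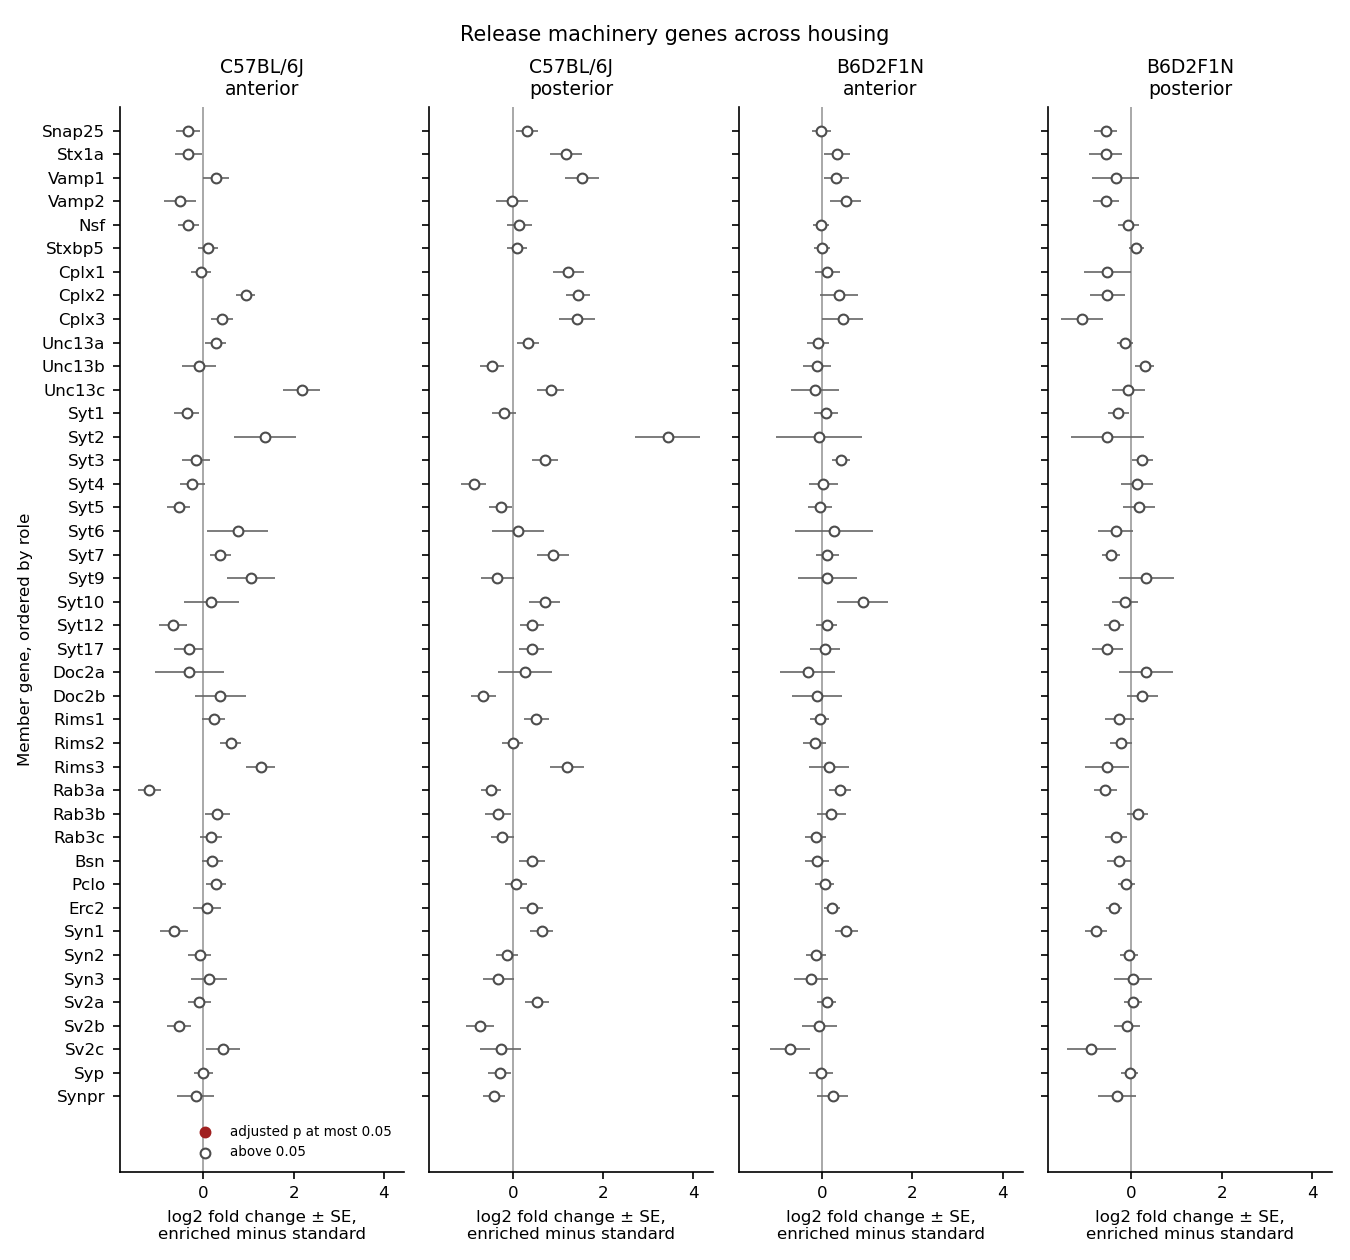
Log2 fold change (enriched minus standard, x axis) with its standard error for each of the 42 genes (y axis, ordered by role) in the 4 combinations of strain and portion. All points are open, as none passed an adjusted p of 0.05, and Cplx2 lies right of 0 in both C57BL/6J panels and left of 0 in the posterior B6D2F1N panel.

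In B6D2F1N mice, all 6 complexin and Munc13 genes overlapped between the housings in both portions. Cplx2 was at 178, 220.3, 398, 143 and 128 CPM in the 5 standard and at 622, 121, 303, 152 and 189.7 CPM in the 5 enriched anterior libraries. The highest of both groups stood well above the rest, and the log2 fold change was 0.38 ± 0.42 (adjusted p = 1), or -0.17 without enriched mouse 1. In the posterior portion, Cplx2 was at 203, 439, 414, 299 and 174 CPM in standard and between 82.3 and 432 CPM (median 195) in the 6 enriched mice (log2 fold change -0.53 ± 0.389, adjusted p = 0.951).

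The other 5 of these genes had log2 fold changes between -0.16 (Unc13c) and 0.46 (Cplx3) in the anterior and between -1.10 (Cplx3) and 0.29 (Unc13b) in the posterior portion of B6D2F1N mice. Without standard mouse 1, the mouse with 0 counts of Xist, none of the 42 genes passed in either portion. Without standard mouse 3, which had 100.3 CPM of Unc13c, the anterior value of Unc13c was 0.84. The smallest p of the 42 genes in the anterior portion belonged to Syn1 (0.54 ± 0.262, adjusted p = 0.77) and Syt3 (0.42 ± 0.208, adjusted p = 0.77). In the posterior portion they belonged to Syn1, which was between 47.2 and 91.5 CPM in standard and between 20.8 and 62.1 CPM in enriched mice (-0.79 ± 0.246, adjusted p = 0.752), and to Cplx3 (-1.10 ± 0.463, adjusted p = 0.752).

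The strain by housing term tested whether housing acted differently in the strains. It called 0 of the 42 genes and 0% of all genes in either portion (edgeR). DESeq2 called 0 of the 42 as well, with 0.0114% and 0.0538% of all genes. An unadjusted p of at most 0.05 was held by 3 of the 42 in the anterior portion (5.98% of all genes) and by 13 of the 42 in the posterior one (8.38%). The difference of the housing effects (B6D2F1N minus C57BL/6J) for Cplx2 was -1.96 ± 0.535 in the posterior portion (adjusted p = 0.491) and -0.57 ± 0.613 in the anterior portion (adjusted p = 1). For Unc13c it was -0.90 ± 0.525 and -2.35 ± 0.837 (adjusted p = 0.688 and 0.814). The smallest p of the 42 in the anterior portion belonged to Rab3a (1.59 ± 0.387, adjusted p = 0.814) and Unc13c. In the posterior portion they belonged to Syn1 (-1.42 ± 0.372, adjusted p = 0.491) and Cplx2. Cplx3 (-2.50 ± 0.686) and Cplx1 (-1.73 ± 0.734) had the same sign as Cplx2 in the posterior portion, while Cplx1 and Cplx3 had 0.16 and 0.04 in the anterior portion. For Unc13a the difference was -0.37 (anterior) and -0.47 (posterior), and for Unc13b -0.04 and 0.76.

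The levels were also set against a number in the sample titles, whose meaning the labels do not give, and none of the 42 genes passed with edgeR. The second number of the title runs from 1 to 37 over the libraries. In C57BL/6J mice, it is 24 to 35 in all standard and 5 to 15 in all enriched libraries, so that number and housing cannot be told apart in this strain. In B6D2F1N mice, standard libraries run from 1 to 31 and enriched ones from 2 to 37.

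In the anterior B6D2F1N libraries, with housing in the model, Cplx2 fell by 0.48 ± 0.115 on the log2 scale per 10 numbers. In both portions, 0% of all genes passed with edgeR (5 and 9 of the 42 genes, and 6.94% and 8.98% of all genes, had an unadjusted p of at most 0.05), and the adjusted p of Cplx2 was 0.626. With DESeq2, Cplx2 was called (adjusted p = 0.0442, with 0.434% of all genes called), and 0 of the 42 genes in the posterior portion (0.4% of all genes). Without enriched mouse 6, edgeR called 5 of the 42 genes in the posterior portion, Vamp1, Cplx1, Rims1, Unc13c and Syt17, and 2.26% of all genes. The 3 anterior B6D2F1N libraries with the highest Cplx2 levels, 622, 398 and 303 CPM, had the numbers 2, 1 and 12. The library with the number 3 was lower, at 220.3 CPM, and those from 16 on were at 121 to 189.7 CPM.

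In the posterior B6D2F1N libraries, Cplx2 changed by -0.22 ± 0.172 per 10 numbers (adjusted p = 0.776). Unc13c changed by -0.44 ± 0.178 in the anterior and -0.38 ± 0.146 in the posterior libraries (adjusted p = 0.656 and 0.465). Its anterior value was -0.13 without standard mouse 3 and -0.76 without enriched mouse 6, and its posterior value -0.70 without enriched mouse 6 (edgeR adjusted p = 0.03). The other complexins changed by -0.09 and -0.31 (Cplx1) and by -0.19 and -0.36 (Cplx3) per 10 numbers in anterior and posterior libraries, Unc13a by -0.04 and 0.11 and Unc13b by -0.00 and 0.20. Among the 42 genes, the smallest p after Cplx2 in the anterior portion was that of Rims3 (-0.46 ± 0.144, adjusted p = 0.649). In the posterior portion the smallest were those of Rims1 (-0.40 ± 0.121, adjusted p = 0.408) and Syt17 (0.43 ± 0.163, adjusted p = 0.465). The 10 oligodendrocyte markers all had negative values as well, with medians of -0.47 in the anterior and -0.66 in the posterior portion, and their part was not tested.

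**Figure D5:**
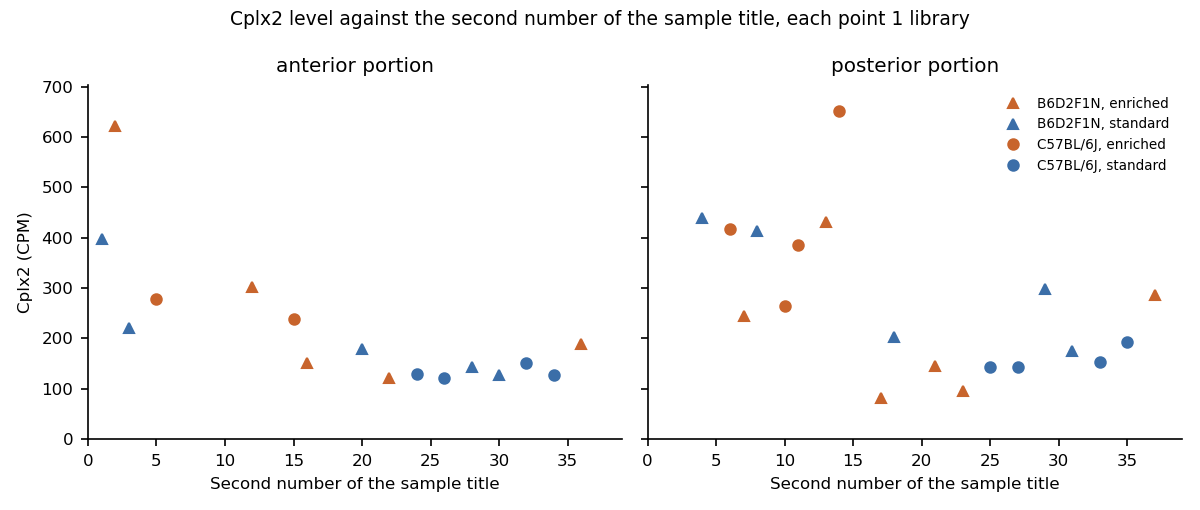
Cplx2 in CPM (y axis) against the second number of the sample title (x axis), with 1 point per library, in the anterior (left) and posterior portion (right). Circles are C57BL/6J and triangles B6D2F1N mice, blue is standard and orange enriched housing, and the C57BL/6J circles split into enriched at 5 to 15 and standard at 24 to 35.

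Of 10 markers of oligodendrocytes, the myelinating glia, 1 passed for housing in the posterior and 0 in the anterior portion of C57BL/6J mice, although all 10 had positive log2 fold changes in both (medians 0.96 and 0.84). The 10 genes summed to 8533 to 13352 CPM in the standard and 18670 to 29331 CPM in the enriched posterior libraries, without overlap, and the called gene was Mbp, for myelin basic protein (log2 fold change 1.97 ± 0.271, adjusted p = 0.0366). In 7 of the 8 fits without 1 mouse, no gene was called in this comparison. In the anterior portion the sums of 8473 to 11363 and 10641 to 25469 CPM overlapped. All 10 markers were above 0 in every library.

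Libraries with high sums of these markers had high Cplx1, Cplx3, Syt2 and Vamp1 in some cases and not in others. In 2 of the 5 standard posterior B6D2F1N libraries, these genes were high together with the markers. Mice 2 and 3 had 412 and 462 CPM of Cplx1, 46.3 and 38.6 CPM of Cplx3, 29 and 23.6 CPM of Syt2 and 108 and 106 CPM of Vamp1. The other 3 mice had 75.8 to 117 CPM of Cplx1, 5.25 to 15.9 CPM of Cplx3, 3.2 to 5.98 CPM of Syt2 and 24.5 to 36.7 CPM of Vamp1. The oligodendrocyte sum of mice 2 and 3 was 24292 and 20129 CPM, and at most 8786 CPM in the other 3. The highest posterior sum, 29331 CPM in C57BL/6J enriched mouse 2, came with 317, 39.6, 64 and 149 CPM of Cplx1, Cplx3, Syt2 and Vamp1. The highest anterior sum, 32671 CPM in B6D2F1N enriched mouse 1, came with 467, 78.1, 27.9 and 84.2 CPM of these genes. The posterior library of C57BL/6J enriched mouse 3, in contrast, had a sum of 19189 CPM with 146 CPM of Cplx1, 8.67 CPM of Cplx3, 4.81 CPM of Syt2 and 31.8 CPM of Vamp1. That of B6D2F1N enriched mouse 4 had a sum of 16975 CPM with 55.8 CPM of Cplx1, 16.9 CPM of Cplx3, 0.972 CPM of Syt2 and 19.3 CPM of Vamp1. C57BL/6J enriched mouse 1, with 22932 CPM, was high in Cplx1 and Cplx3 but had 4.87 CPM of Syt2. Mice 2 and 3 of the standard posterior B6D2F1N group also carry the lowest title numbers of that group, 4 and 8. The part of oligodendrocytes in these levels was not tested.

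None of the 42 genes passed the test between the strains. In the standard anterior, standard posterior, enriched anterior and enriched posterior comparisons, 0 of 42 passed with edgeR, against 0.37%, 0.373%, 0.0639% and 0.394% of all genes, and 4, 11, 2 and 6 of the 42 had an unadjusted p of at most 0.05. The numbers of all genes at such a p were 2187, 2605, 1016 and 2336, or 9%, 10.3%, 4.33% and 9.11% of those tested. DESeq2 called Syt2 and Rims3 in the standard posterior and Rab3a in the enriched anterior comparison, with 1.56% and 0.584% of all genes, and 0 of the 42 in the other comparisons. These comparisons share their libraries with those of housing.

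Cplx2 had log2 fold changes (B6D2F1N minus C57BL/6J) of 0.69 ± 0.284 and 0.97 ± 0.282 in standard and of 0.14 ± 0.532 and -0.99 ± 0.394 in enriched housing, in the anterior and posterior portion. Unc13c had 1.46 ± 0.527 and 1.15 ± 0.351 in standard and -0.87 ± 0.527 and 0.24 ± 0.348 in enriched housing. In standard housing these were among the smallest p of the 42 genes (adjusted p from 0.29 to 0.539), and the groups overlapped in both genes. Without B6D2F1N standard mouse 3, the standard anterior values fell to 0.45 for Unc13c and 0.32 for Cplx2. Cplx1 lay between -0.71 and 1.04, Cplx3 between -1.26 and 1.26, Unc13a between -0.13 and 0.38 and Unc13b between -0.19 and 0.57 over the 4 comparisons. The other genes with the smallest p were Syt2 in the standard posterior (2.13 ± 0.622, adjusted p = 0.289), Rab3a and Syn1 in the enriched anterior (1.26 ± 0.356 and 1.05 ± 0.359, adjusted p = 0.874 and 1), and Cplx3 and Stx1a in the enriched posterior comparison (-1.26 ± 0.397 and -1.08 ± 0.366, adjusted p = 0.366 and 0.431).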

How the data were processed

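RNA-seq libraries of the anterior and posterior amygdala of 19 mice (polyA RNA, single reads of 72 bases) were analysed. Per the labels and the study's methods, the authors processed the reads with bcl2fastq, FastQC 0.11.7, Trimmomatic 0.38, HISAT2 2.1.0 and SAMtools 1.8 and counted them per Ensembl gene with HTSeq 0.11.2 (GRCm38), and they deposited raw counts, 1 file per library. The strand setting of the counting is not given in the sources used here. Reads in no gene (13.7% to 26.4%) or aligned to several places (6.23% to 10.9%) were left out.

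Genes with at least 10 counts over the libraries of a comparison were tested with edgeR 4.0.16 (TMM factors, quasi-likelihood F test, R 4.3.3), two-sided, with Benjamini-Hochberg adjustment over all genes tested and a threshold of 0.05. Housing and strain were tested within portion, and the portions with the mouse as a block. The 16 mice with both portions pair their libraries because each pair comes from 1 animal. The correlation of their deviations over 16022 genes had a median of 0.0481 (-0.105 to 0.222), against -0.0168 between mice. The standard error given with an edgeR log2 fold change is its absolute value divided by the square root of the F statistic. CPM values use TMM factors over all 35 libraries. Levels per kilobase use exon lengths of GENCODE M21. Log2 ratios of paralogs were compared by an exact sign-flip permutation test over mice.

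Alternatives were DESeq2 1.42.0, its size factors, edgeR's filterByExpr, no minimum, scaling to neuron markers, joint fits, only mice with both portions, no block, and leaving out single mice. The title number as a term, and the analysis of that number, were added after the data were seen. The code was tested on simulated data. P-values measure the spread between mice. By the study's methods, mice of a strain shared cages, and playground access was given to a cage. Cage was not a term in any test, so mice of a cage were treated as independent, also for housing.

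Named were the 3 complexin and 3 Munc13 genes, each gene past the threshold, and, where none passed, the 2 genes with the smallest p. Some called genes of the further lists are counted but not reported by name here. Other genes without a call in a comparison were named there after their values were seen. The 42 genes and all lists were chosen with earlier results of these data known.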

Additional observations from a re-analysis of the deposited data

Results flagged for a closer look

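In 84 groups of 4 to 6 mice over 12 of the genes, 5 groups held a value set apart from the others by Dixon's criterion, which chance alone meets in about 1 of 20 groups. All 5 were the highest value of their group. Unc13c was at 100.3 CPM in the anterior portion of B6D2F1N standard mouse 3, with the nearest of the other 4 mice at 20.4 CPM, so that the gap made up 0.94 of the range. Rims3 was at 57.8 CPM in the same library, with the nearest at 20.4 CPM (0.738 of the range). In the anterior portion of B6D2F1N enriched mouse 1, Rims3 was at 48.5 CPM, with the nearest at 22.1 CPM (0.919). These libraries carry the lowest title numbers of the anterior B6D2F1N libraries, 1 and 2, and the highest oligodendrocyte sums, 15567 and 32671 CPM, whose part was not tested. Syt3 was at 83.6 CPM in the anterior portion of C57BL/6J standard mouse 2, with the nearest at 47.6 CPM (0.889). Rab3a was at 541 CPM in the posterior portion of B6D2F1N enriched mouse 2, with the nearest at 299 CPM (0.658).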

How the results depend on the processing

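Of the 42 genes, DESeq2 called 3 and 5 for housing in the anterior and posterior portion of C57BL/6J mice, 2 and 1 for strain in the standard posterior and enriched anterior comparisons, and 1 for the title number in the anterior portion, where edgeR called none. Without a minimum of counts, edgeR called 4 and 3 for housing in the anterior and posterior portion of C57BL/6J mice. Leaving out single mice gave 0 to 4 (without enriched mouse 3) for housing in the posterior portion of C57BL/6J mice, 8 to 19 between the portions of C57BL/6J mice, 13 to 19 in B6D2F1N mice, and 0 to 5 (without enriched mouse 6, when 580 of all genes were called) for the title number in the posterior portion. No call between the portions changed its direction under any alternative.

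Without the replicate block, which pairs the libraries of a mouse, 11 of the 42 genes were called between the portions in C57BL/6J and 16 in B6D2F1N mice, each among those called with it. The blocked fit called 15 and 17. The share of all genes called without the block is not given here, so the change cannot be set against that of all genes.

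Over all genes, DESeq2 called 100, 319, 8 and 13 for housing, 1535 and 1994 between the portions, 254, 392, 137 and 342 for strain, 3 and 15 for the strain by housing term, and 107 and 104 for the title number. Without a minimum, edgeR called 274 and 112 for housing in C57BL/6J mice, 57 for strain in the enriched anterior comparison and 2 for the strain by portion term. For housing in the posterior portion of C57BL/6J mice, a joint fit, the title number as a term and keeping only mice with both portions each left 0 of 4 genes, and leaving out single mice gave 0 to 172. The title number separates the housings in this strain, so a fit with both terms cannot tell their parts apart. A joint fit called 44 for strain in the enriched anterior comparison. Neuron scaling called 2666 between the portions of B6D2F1N mice. Without the mouse with no Xist counts, 10 were called for housing in the posterior portion, 166 for strain in the standard posterior comparison and 14 for the strain by housing term in the posterior portion.

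All log2 differences that changed sign belonged to genes without a call in that comparison. Under neuron scaling, these were Cplx1 for housing in the anterior portion of C57BL/6J mice (0.08), Unc13a (0.05) and Unc13c (0.22) for housing in the posterior portion of B6D2F1N mice, Unc13a between the portions of C57BL/6J mice (0.03) and for strain in the enriched anterior comparison (-0.08), and Cplx3 (-0.03) and Unc13b (0.04) for the anterior strain by housing term. With the title number as a term, housing gave 0.52 for Cplx1 and -0.47 for Unc13a in the anterior and -0.01 for Unc13a in the posterior portion of C57BL/6J mice, and 0.13 and 0.09 for Unc13c in the anterior and posterior portion of B6D2F1N mice. With only mice of both portions, the latter was 0.00. For C57BL/6J mice, the values with this term do not isolate housing, because the number separates the housings there. Without the mouse with no Xist counts, Unc13a and Unc13b had 0.09 and 0.00 for housing in the anterior portion of B6D2F1N mice, and Unc13b 0.09 for the anterior strain by housing term.

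Leaving out single mice gave these ranges. For strain in the standard anterior comparison, Unc13c ran from 0.45 to 1.64 and Cplx2 from 0.32 to 0.83. For the title number, Unc13c ran from -0.76 to -0.13 in the anterior and from -0.70 to -0.30 in the posterior portion. For housing in the anterior portion of C57BL/6J mice, Cplx1 ran from -0.12 to 0.05 and Unc13b from -0.60 to 0.30. In the anterior portion of B6D2F1N mice, Cplx1 ran from -0.18 to 0.29, Cplx2 from -0.17 to 0.74, Cplx3 from -0.06 to 0.72, Unc13a from -0.25 to 0.09, Unc13b from -0.34 to 0.03 and Unc13c from -0.42 to 0.84, and in the posterior portion Unc13c from -0.29 to 0.17. For strain in the enriched anterior comparison, Cplx1 ran from -0.39 to 0.09, Cplx2 from -0.42 to 0.33, Unc13a from -0.14 to 0.20, Unc13b from -0.10 to 0.80 and Unc13c from -1.50 to 0.24. For the anterior strain by housing term, Cplx1 ran from -0.15 to 0.32, Cplx3 from -0.48 to 0.30 and Unc13b from -0.42 to 0.48. The change of the ratio of Unc13c to Unc13b between the portions of C57BL/6J mice ran from -0.19 to 0.70. The cause of these shifts was not tested. The number of mice per group, with 2 in the enriched anterior C57BL/6J group, limits the precision.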
